A study of Mus musculus with 4 samples.

Results

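The genes followed here across slices of injured mouse cortex mark the oligodendrocyte lineage and its precursors: Olig1, Olig2, Sox10, Gpr17, Enpp6, Bcas1, Bmp4, Neu4 and C1ql1. They are 9 of the 32285 genes in the deposited spatial tables. They were taken as a list of names for precursor and early oligodendrocyte genes, chosen with earlier results of these data known. Each was measured as unique molecular identifiers (UMIs, one per captured RNA molecule) per 10000 UMIs in a slice, by distance from spots rich in Col1a1. Col1a1 is the gene for a fibrillar collagen chain made by fibroblasts. All 9 genes were detected in every slice and all 9 passed the filter on low counts in every test.

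Oligodendrocyte precursors are dividing glia found throughout the adult brain. They commit to differentiation, pass through a brief premyelinating stage and then wrap axons in myelin. The transcription factors Olig1, Olig2 and Sox10 are active along the whole lineage, so mature oligodendrocytes in white matter express them too. Gpr17, a G-protein-coupled receptor, Enpp6, a choline phosphodiesterase, and Bcas1 mark committed and newly formed cells. Bmp4 is a secreted ligand that holds back oligodendrocyte differentiation and is made by committed precursors and also by non-neural cells. Neu4 is a sialidase of precursors, and C1ql1 is a secreted C1q-like protein whose receptor is encoded by Adgrb3.

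The samples were 4 Visium capture areas of fresh-frozen brain, each holding 2 separate tissue slices. The injury was photothrombotic (PT), made by lighting the cortex after a photosensitive dye was given, and times are days post injury (dpi). The first area carried both a slice at rest and a slice at 2 dpi, told apart by their outlines in the study's spatial plots. Another area carried the pair at 7 dpi and a further one a pair at 21 dpi, and these 3 areas are labelled wild type. The fourth held 2 slices at 21 dpi from Cthrc1(creER); R26(DTA) mice, called deleter here, in which a Cre recombinase expressed from Cthrc1, a gene of profibrotic myofibroblasts, switches on a toxin after tamoxifen is given. The methods describe adult mice, of both sexes unless stated otherwise, backcrossed on C57BL/6. A mixed background is named only for lines not used here. The methods give a default age range for the study and not the age of these mice. They list 8 mice for the 8 slices, so each slice was read as 1 mouse and each group compared between zones had 2. Cthrc1 itself read 0.124 and 0.120 UMIs per 10000 in the 21 dpi wild-type slices and 0.0638 and 0.0895 in the deleter slices. The methods state that the study set both deleter mice aside because it could not detect a deletion, so deleter names the genotype and not a measured loss of cells.

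Spots with at least 5 Col1a1 UMIs per 10000 were called fibrotic, spots 1 to 2 steps away the ring, and spots 6 or more steps away far. One step is the distance between neighbouring spots. The slices held 827 to 1726 spots with UMIs, and 11332780 to 23677298 UMIs in total. The slice at 2 dpi stood apart in depth, with a median of 2634 UMIs per spot against 12467 to 16158 in the other 7 slices. Only 3 spots at rest and 26 at 2 dpi were fibrotic, against 112 to 392 in each of the 6 later slices, so zones were compared in those 6 slices alone. Levels are shares of the UMIs of a zone, and depth differed between zones most at 7 dpi. There the median spot held 4923.5 and 9206.5 UMIs in fibrotic spots, 8805.5 and 13599 in the ring and 16903 and 18366 far away. In wild-type slices at 21 dpi these medians were 10828 and 13879, 12021.5 and 13551, and 13198 and 12814.5. The part of depth in the zone differences was not tested. Time, capture area and sex cannot be told apart between the 7 and 21 dpi wild-type slices, since each time lay in 1 area and Xist was detected in both 7 dpi slices at 1.06 and 0.948 UMIs per 10000 while both 21 dpi wild-type slices carried the Y-linked Ddx3y at 0.683 and 0.710. Genotype and capture area cannot be told apart at 21 dpi. In the deleter area, slice 1 carried Xist at 0.803 and slice 2 carried Ddx3y at 0.559.

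The bases just before the transcription start are shown for Bmp4, which was higher beside fibrotic spots in all groups, and for Neu4 and Enpp6, which are mapped below as a sum with Bmp4 and Gpr17. Each runs 5′ to 3′ on the gene's strand and ends before the first transcribed base, as given by RefSeq for build GRCm38.p6 and shortened for Neu4 where the GENCODE start lies further upstream. Capitals mark the motifs searched on both strands: CANNTG, the E-box bound by basic helix-loop-helix factors such as Olig2, and ACAAAG and ACAATG, letters bound by SOX factors.
Bmp4, chr14:46390670-46390919, minus strand: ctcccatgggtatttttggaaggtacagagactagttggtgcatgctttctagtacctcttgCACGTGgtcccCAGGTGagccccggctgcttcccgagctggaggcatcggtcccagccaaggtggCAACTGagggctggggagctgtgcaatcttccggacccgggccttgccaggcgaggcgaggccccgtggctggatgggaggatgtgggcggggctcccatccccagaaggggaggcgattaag
Neu4, chr1:94020243-94020450, plus strand: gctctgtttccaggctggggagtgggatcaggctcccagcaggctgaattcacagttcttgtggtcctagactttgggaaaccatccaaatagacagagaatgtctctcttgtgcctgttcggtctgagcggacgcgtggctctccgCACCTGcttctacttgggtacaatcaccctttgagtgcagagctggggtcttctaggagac
Enpp6, chr8:46986637-46986886, plus strand: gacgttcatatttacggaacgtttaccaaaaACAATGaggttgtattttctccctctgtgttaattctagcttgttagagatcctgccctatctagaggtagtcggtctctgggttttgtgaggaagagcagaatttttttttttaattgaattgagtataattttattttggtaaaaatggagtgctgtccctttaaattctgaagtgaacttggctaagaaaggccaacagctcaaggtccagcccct
The Bmp4 window held 3 E-boxes and the Neu4 window 1, none overlapping another match, while the Enpp6 window held none and 1 ACAATG. The Olig2 window of 157 bases, which is not printed, held no match to any of the 3 motifs. An E-box was present in 66.2% of 32851 RefSeq promoter windows of 250 bases and in 60.3% of those cut to 208 bases, the length of the Neu4 window. ACAATG was present in 10.7% and ACAAAG in 16.5% of the 250-base windows. These matches describe letters and not sites of binding.

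The genes lie on 8 chromosomes of build GRCm38. Olig1 (chr16:91269772-91271933, plus strand) and Olig2 (chr16:91225457-91228677, plus strand) are neighbours on chromosome 16. Sox10 lies at chr15:79154908-79165240 on the minus strand, Gpr17 at chr18:31942997-31949636 on the minus strand and Enpp6 at chr8:46986887-47096762 on the plus strand. Bcas1 lies at chr2:170346991-170427845, Bmp4 at chr14:46383520-46390669 and C1ql1 at chr11:102939264-102946688, all on the minus strand, and Neu4 at chr1:94020451-94028334 on the plus strand. Gpr17 overlaps Lims2 on the opposite strand, and Olig1, Enpp6, Bcas1 and Bmp4 overlap 1 or 2 annotated genes each on the opposite strand. The sources used here do not state how strand entered the counting, so reads of these pairs cannot be told apart with certainty.

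Over whole slices, the genes of committed precursors read low at rest and at 2 dpi and above that in most or all of the 6 later slices. Gpr17 read 0.137 UMIs per 10000 at rest (95% Poisson interval 0.120 to 0.156) and 0.130 at 2 dpi (0.111 to 0.151). At 7 dpi it read 0.351 and 0.562, at 21 dpi in wild-type slices 0.266 and 0.334, and in deleter slices 0.295 and 0.266. The 6 later slices thus lay above both early slices, and both 7 dpi slices above the 4 at 21 dpi, though the 2 slices of 7 dpi differed from each other by more than those of any 21 dpi pair.

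Neu4 and C1ql1 followed the same order. Neu4 read 0.0520 at rest and 0.0359 at 2 dpi, 0.132 and 0.156 at 7 dpi, 0.0892 and 0.101 at 21 dpi in wild-type slices, and 0.0910 and 0.0705 in deleter slices. C1ql1 read 0.0770 at rest and 0.0619 at 2 dpi, 0.193 and 0.203 at 7 dpi, 0.174 and 0.161 in wild-type slices at 21 dpi, and 0.135 and 0.118 in deleter slices. For both genes the lowest later slice exceeded the slice at rest. Rest and 2 dpi had overlapping intervals for Gpr17 (above), Neu4 (0.0415 to 0.0643 and 0.0264 to 0.0477) and C1ql1 (0.0642 to 0.0917 and 0.0491 to 0.0769). The intervals cover counting error only, and with 1 slice at rest and 1 at 2 dpi no test was made against them.

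Enpp6 and Bmp4 were less orderly. Enpp6 read 0.145 at rest and 0.225 at 2 dpi, 0.537 and 0.470 at 7 dpi, 0.269 and 0.415 at 21 dpi in wild-type slices, and 0.334 and 0.221 in deleter slices, so that deleter slice 2 fell within the interval of the 2 dpi slice (0.20 to 0.253). Bmp4 read 0.0471 at rest and 0.0344 at 2 dpi, 0.0812 and 0.153 at 7 dpi, 0.10 and 0.109 in wild-type slices at 21 dpi, and 0.0964 and 0.0752 in deleter slices. Its 7 dpi slices lay on either side of the 4 slices at 21 dpi, bar deleter slice 2, which was below both.

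The pan-lineage factors read lowest at rest and were above that by 2 dpi, with intervals that did not overlap. Olig1 read 1.14 at rest (1.08 to 1.19) and 1.96 at 2 dpi (1.89 to 2.04), 2.27 and 1.91 at 7 dpi, 1.75 and 1.89 at 21 dpi in wild-type slices, and 1.72 and 1.65 in deleter slices. Olig2 read 0.199 at rest, 0.397 at 2 dpi and between 0.277 and 0.352 in the later slices. Sox10 read 0.235 at rest, 0.414 at 2 dpi and between 0.266 and 0.499 in the later slices.

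Bcas1, which mature oligodendrocytes keep, read 1.46 at rest, 2.59 at 2 dpi and between 1.58 and 2.58 later. The share of spots counted as myelin-rich, those above 54.6 UMIs per 10000 of Mbp, Mobp and Mal together, differed between the slices. It was 14.0% at rest and 41.2% at 2 dpi, against 17.7% to 26.1% in the later slices. Over whole slices the 3 genes together read 36.0 at rest, 45.6 at 2 dpi and 39.3 to 62.4 later, so the 2 dpi slice stood apart in the share of spots only. Its median spot held 2633.5 UMIs, and the part of that low depth in the share was not tested. In all 8 slices Olig1 was higher in myelin-rich than in other spots, by 2.41 to 4.94 times, and Bcas1 by 3.67 to 7.64 times. The part of white matter in the differences between whole slices was not tested.

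**Figure D1:**
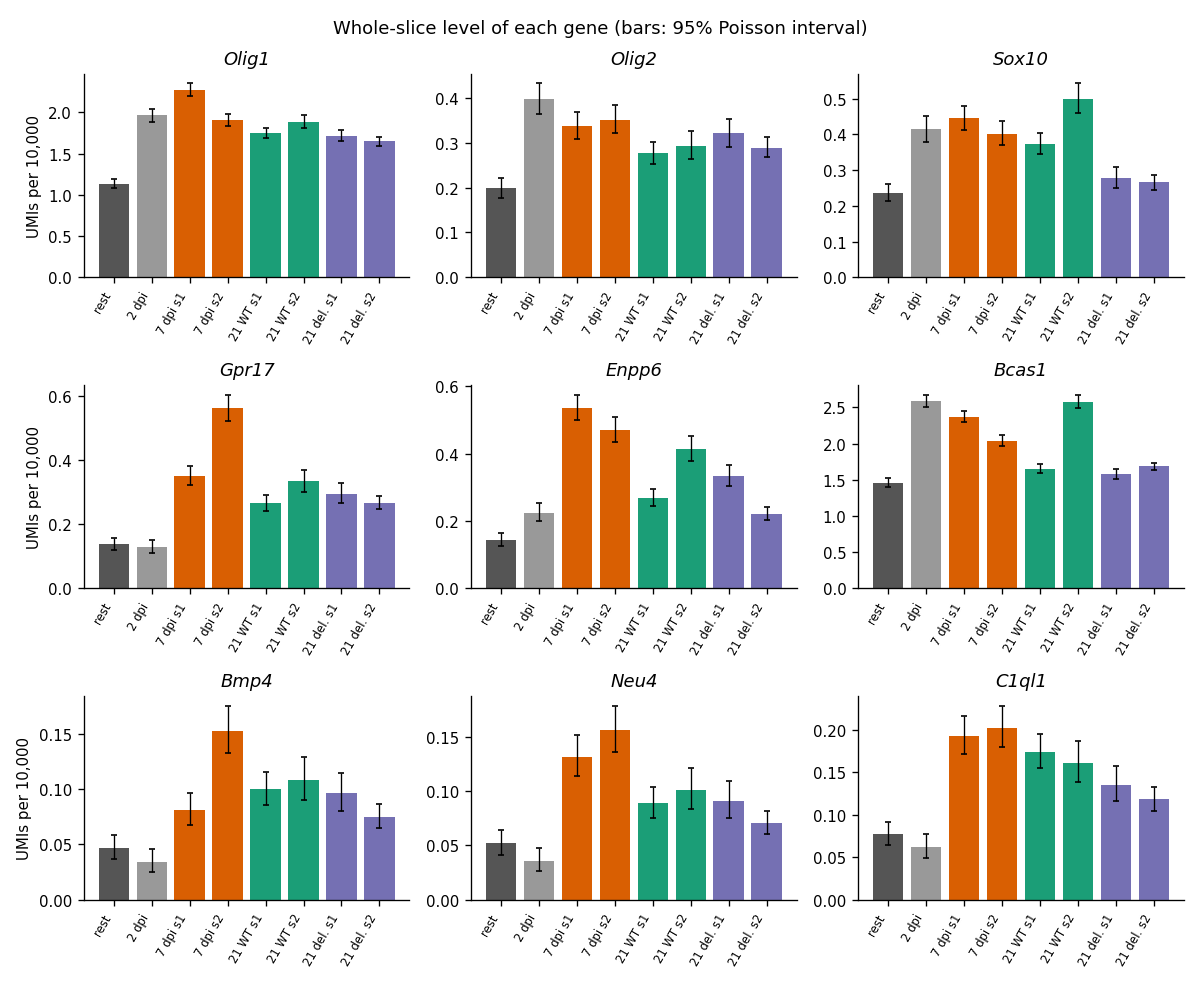
Each panel plots 1 gene, with its level in UMIs per 10000 on the vertical axis and the 8 slices along the horizontal axis; bars are slices and error bars are 95% Poisson intervals. Gpr17, Neu4 and C1ql1 sit low in the slices at rest and at 2 dpi (0.137 and 0.130 for Gpr17) and higher in the 6 later slices, whereas Olig1 and Bcas1 are already high at 2 dpi.

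The question put to the 6 later slices was whether lineage genes differed beside the fibrotic tissue from tissue far away. In wild-type slices at 21 dpi, 4 of the 9 genes were higher in the ring than far from fibrotic spots, namely Bmp4, C1ql1, Gpr17 and Neu4, where 13.7% of all 14534 genes tested passed the same threshold (edgeR's quasi-likelihood test of UMI sums for each zone of each slice, with the slice as a block, Benjamini-Hochberg adjusted p below 0.05). In deleter slices 2 were higher, Bmp4 and Gpr17, against 15.9% of all genes. At 7 dpi 2 were higher, Bmp4 and C1ql1, against 25.3% of all genes, so the share at 7 dpi was near the background. Since the 9 genes were chosen with earlier results of these data known, their shares beside those of all genes are a description only. Without either 7 dpi slice no gene passed at 7 dpi, without deleter slice 1 none passed in deleter slices, and with the Col1a1 minimum lowered to 3 the counts were 1 at 7 dpi, 1 in wild-type slices at 21 dpi and 0 in deleter slices. The median log2 difference of all genes lay between -0.03 and 0.00 in the 3 ring comparisons. In tissue sums of this kind, more cells of a type and more RNA per cell cannot be told apart.

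Gpr17 was higher in the ring in both 21 dpi groups. It read 0.412 and 0.590 UMIs per 10000 in the ring and 0.220 and 0.176 far away in the wild-type slices, and 0.453 and 0.478 against 0.128 and 0.210 in the deleter slices. Ring and far values did not overlap in either group, which was also so for Bmp4, C1ql1, Neu4 and Enpp6. How often this occurs over all genes was not counted. The log2 differences of Gpr17 were 1.23 (SE 0.30, adjusted p = 0.0212) and 1.42 (SE 0.30, adjusted p = 0.00879). At 7 dpi it read 0.575 and 0.615 in the ring and 0.319 and 0.478 far away. That log2 difference of 0.64 (SE 0.29, adjusted p = 0.127) did not pass, although the ring value was the higher in 2 of 2 slices. The wild-type call at 21 dpi was lost without slice 2 (log2 0.89, adjusted p = 0.186) and without myelin-rich spots (0.74, adjusted p = 0.268), and the deleter call without slice 1 (1.15, adjusted p = 0.255).

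As a share of the UMIs of each zone, Bmp4 was higher in the ring in all 3 groups. At 7 dpi it read 0.108 and 0.177 in the ring and 0.0574 and 0.0690 far away, a log2 difference of 1.19 (SE 0.31, adjusted p = 0.0170). In wild-type slices at 21 dpi the ring read 0.142 and 0.152 and far tissue 0.0430 and 0.0173, a log2 difference of 2.16 (SE 0.33, adjusted p = 0.00179). In deleter slices the ring read 0.0936 and 0.125 and far tissue 0.0171 and 0.0353, a log2 difference of 1.89 (SE 0.33, adjusted p = 0.00267). The call at 7 dpi was lost without slice 1 (log2 1.33, adjusted p = 0.152) or slice 2 (1.01, adjusted p = 0.214), and that of deleter slices without slice 1 (1.78, adjusted p = 0.0620). These levels rest on few molecules, with 20 to 50 Bmp4 UMIs in a ring and as few as 6 in a far zone.

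Neu4 and C1ql1 passed in some groups only. Neu4 read 0.119 and 0.206 in the ring and 0.0772 and 0.0619 far away in wild-type slices at 21 dpi, a log2 difference of 1.12 (SE 0.29, adjusted p = 0.0274). It read 0.126 and 0.0933 against 0.0485 and 0.0594 in deleter slices (log2 0.93, SE 0.30, adjusted p = 0.0569) and 0.163 and 0.159 against 0.120 and 0.125 at 7 dpi (log2 0.43, SE 0.28, adjusted p = 0.302). All 6 slices had the higher Neu4 value in the ring, though the test passed in the wild-type group at 21 dpi alone. That call held under 10 of 18 alternatives and was lost, among others, without wild-type slice 2 (log2 0.61, adjusted p = 0.537), without either 7 dpi slice (1.12, adjusted p = 0.0553 and 0.0561) and without myelin-rich spots (0.69, adjusted p = 0.322). C1ql1 read 0.283 and 0.344 in the ring and 0.125 and 0.0643 far away in wild-type slices at 21 dpi (log2 1.69, SE 0.35, adjusted p = 0.00955), and 0.418 and 0.198 against 0.150 and 0.130 at 7 dpi (log2 1.14, SE 0.35, adjusted p = 0.0320). In deleter slices it read 0.211 and 0.128 against 0.0628 and 0.101 (log2 0.92, SE 0.36, adjusted p = 0.107). The C1ql1 call was lost at 7 dpi without slice 1 (log2 0.58, adjusted p = 0.574) or slice 2 (1.57, adjusted p = 0.0579), and in wild-type slices at 21 dpi without slice 2 (1.16, adjusted p = 0.221).

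Enpp6 was the higher in the ring in 5 of 6 slices, with a wide spread. In wild-type slices at 21 dpi it read 0.322 and 0.769 in the ring against 0.242 and 0.129 far away (log2 1.28, SE 0.48, adjusted p = 0.0962), and in deleter slices 0.605 and 0.359 against 0.154 and 0.210 (log2 1.26, SE 0.47, adjusted p = 0.0885). At 7 dpi slice 1 read 0.873 in the ring against 0.471 far away, and slice 2 read 0.396 against 0.462. The 2 slices of 7 dpi thus went opposite ways.

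Olig1, Olig2, Sox10 and Bcas1 passed in no ring comparison. Olig1 read 2.15 and 1.67 in the ring at 7 dpi against 2.39 and 2.42 far away, and 1.92 and 3.09 against 1.92 and 1.40 in wild-type slices at 21 dpi. Its log2 differences were -0.30 (95% interval -1.02 to 0.42), 0.49 (-0.24 to 1.21) and, in deleter slices, 0.16 (-0.56 to 0.88). Bcas1 had intervals of -1.45 to 0.55 at 7 dpi and -0.58 to 1.49 at 21 dpi in wild-type slices. Differences of these sizes in either direction are therefore within what these slices allow.

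**Figure D2:**
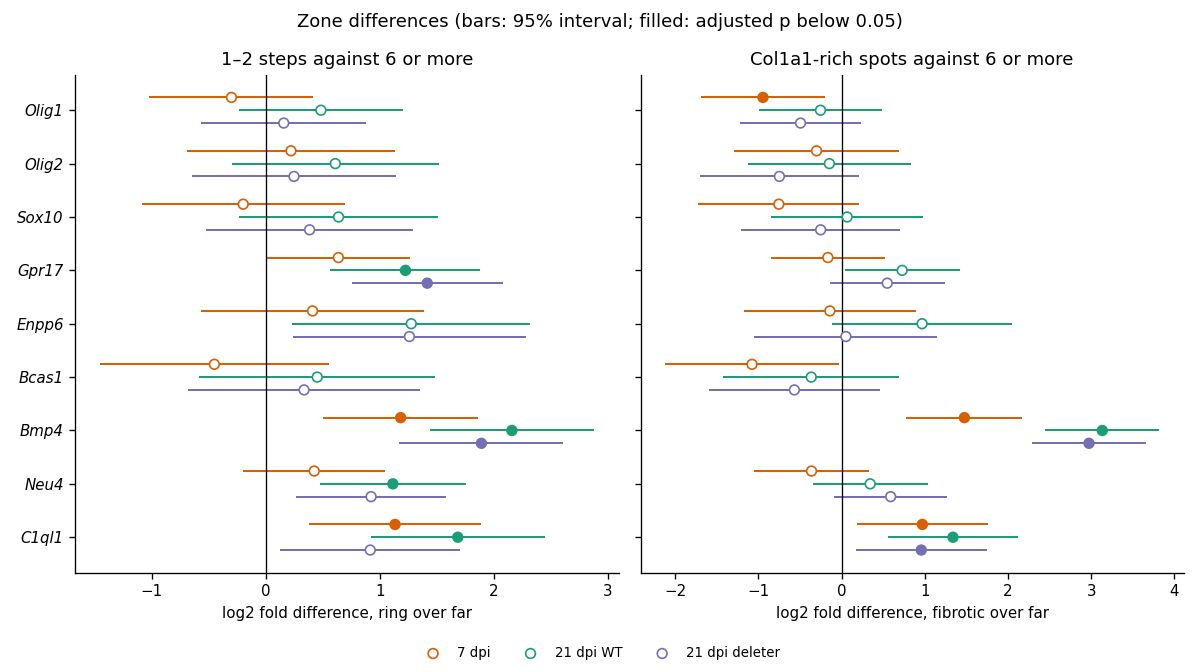
Log2 difference of each gene between the ring and far tissue (left) and between fibrotic spots and far tissue (right) on the horizontal axes, with 1 row per gene and a colour per group; bars are 95% intervals and filled points have an adjusted p below 0.05. Bmp4 is filled in all 6 comparisons, whereas Olig2, Sox10, Enpp6 and Bcas1 are filled in none.

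The finer distances placed the highest levels at different distances from slice to slice. Gpr17 peaked 1 step from fibrotic spots in 7 dpi slice 1, at 0.602, in both wild-type slices at 21 dpi, at 0.421 and 0.752, and in deleter slice 2 at 0.658, and 2 steps away in deleter slice 1 at 0.499. In 7 dpi slice 2 it peaked 3 steps away, at 0.913, and was still 0.878 at 4 to 5 steps, against 0.366 at 9 or more. Neu4 also peaked at 3 steps in both 7 dpi slices, at 0.207 and 0.315, whereas it peaked at 2 steps in wild-type slice 1, at 0.132, and at 1 step in wild-type slice 2, at 0.251, and in both deleter slices, at 0.132 and 0.137. Bmp4 peaked at 3 steps in both 7 dpi slices, at 0.196 and 0.210, and on fibrotic spots in every 21 dpi slice. In 7 dpi slice 2 all 9 genes were lower in the ring than at 3 to 5 steps, at 0.505 (Enpp6) to 0.970 times (Bmp4). In 7 dpi slice 1 the ring stood at 0.904 (Sox10) to 2.84 times (C1ql1) that level. In the main setting, spots at 3 to 5 steps entered none of the ring tests. These positions are a description of 6 slices, and the difference in peak position was not tested.

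**Figure D3:**
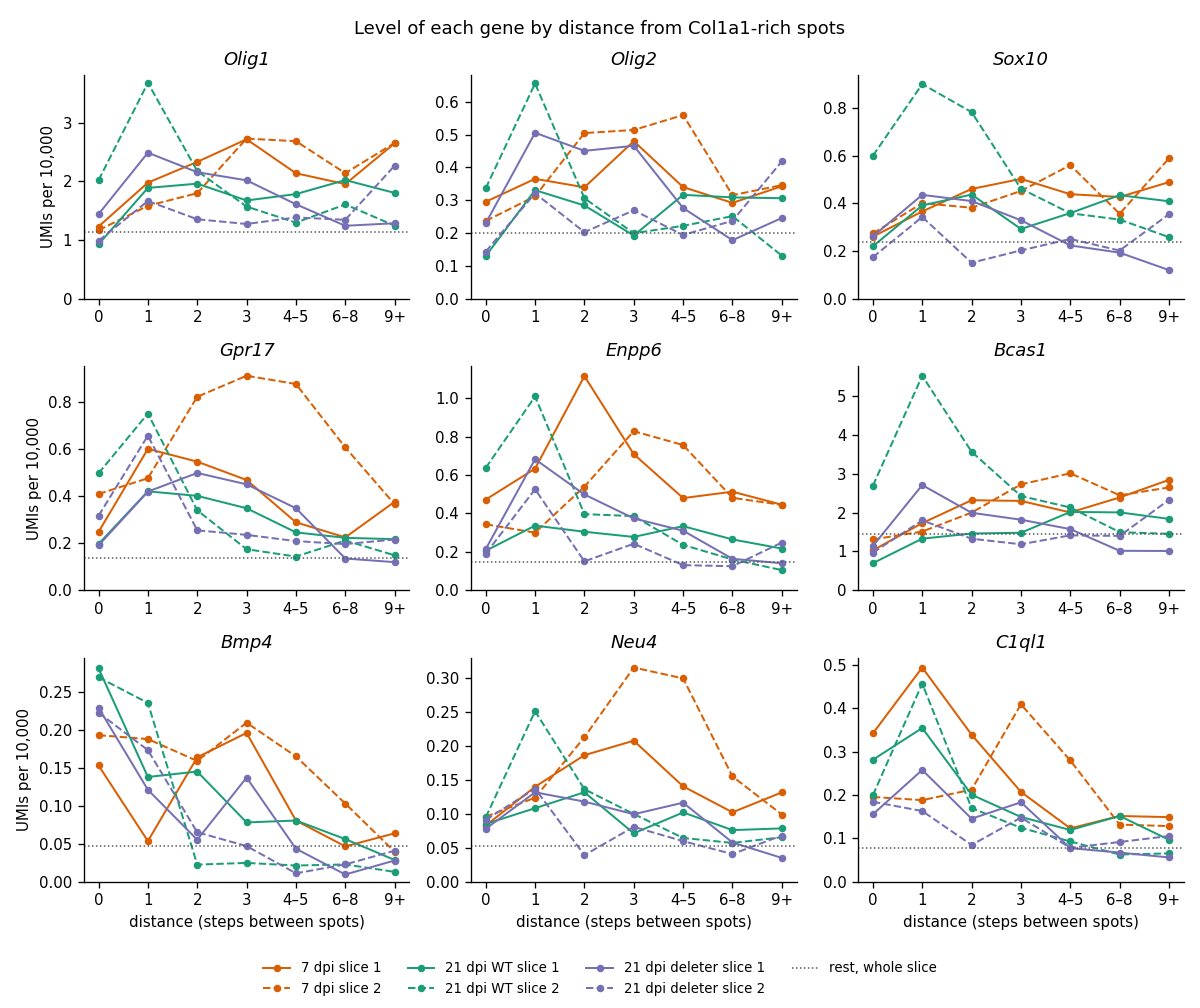
Level of each gene in UMIs per 10000 on the vertical axis against distance in steps from fibrotic spots on the horizontal axis, with 1 line per slice and a dotted line at the whole-slice level at rest. Bmp4 is highest on or within 3 steps of fibrotic spots in each of the 6 later slices, and Gpr17 in 7 dpi slice 2 peaks 3 steps out at 0.913.

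Within the fibrotic spots, Bmp4 and C1ql1 were higher than in far tissue in all 3 groups and no gene other than Olig1, which was lower at 7 dpi, passed. That made 3 of 9 genes at 7 dpi, where 48.9% of all genes passed, and 2 of 9 in each 21 dpi group, where 54.7% (wild type) and 54.6% (deleter) passed. Bmp4 read 0.154 and 0.193 in fibrotic spots at 7 dpi, 0.282 and 0.270 in wild-type slices at 21 dpi and 0.230 and 0.223 in deleter slices. All 6 values were above every ring and far value of the same group bar the 7 dpi ring of slice 2 (0.177), and the log2 differences from far tissue were 1.48 (SE 0.32, adjusted p = 0.00247), 3.13 (SE 0.31, adjusted p = 8.31e-06) and 2.97 (SE 0.31, adjusted p = 1.26e-05). The larger difference at 21 than at 7 dpi in wild-type slices (log2 -1.66 for 7 minus 21 dpi, SE 0.45) did not pass over all genes (adjusted p = 0.257).

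C1ql1 read 0.342 and 0.196 in fibrotic spots at 7 dpi, 0.282 and 0.20 in wild-type slices at 21 dpi and 0.156 and 0.185 in deleter slices. Its log2 differences from far tissue were 0.97 (SE 0.36, adjusted p = 0.0428), 1.34 (SE 0.36, adjusted p = 0.00733) and 0.96 (SE 0.36, adjusted p = 0.0404). Olig1 read 1.23 and 1.17 in fibrotic spots at 7 dpi against 2.39 and 2.42 far away, and fell by 0.95 on the log2 scale (SE 0.34, adjusted p = 0.0373). Myelin-rich spots made up 0.893% and 7.91% of those fibrotic spots and 45.7% and 31.5% of far spots, and without them the Olig1 difference was -0.10 (adjusted p = 0.650). The 7 dpi calls were also lost when a slice was left out: Olig1 without slice 1 or 2 (adjusted p = 0.161 and 0.290), C1ql1 without slice 1 or 2 (0.363 and 0.130) and Bmp4 without slice 2 (0.0942). In deleter slices the C1ql1 call was lost without deleter slice 1 or 2 (adjusted p = 0.135 and 0.0896) and without either 7 dpi slice (0.0506 and 0.0509). With a Col1a1 minimum of 10, C1ql1 passed in fibrotic spots neither at 7 dpi (adjusted p = 0.183) nor in wild-type (0.0789) or deleter slices (0.315). Its call held under 10, 17 and 11 of 18 alternatives at 7 dpi, in wild-type and in deleter slices. In wild-type slice 2 at 21 dpi the fibrotic spots still held Olig1 at 2.02 and Bcas1 at 2.70, against 0.925 and 0.697 in slice 1. There 24.6% of fibrotic spots were myelin-rich, against 1.18% in slice 1.

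Bmp4 also followed the tissue edge in uninjured cortex. At rest it read 0.155 in the 141 spots on the edge of the slice (0.101 to 0.230) and 0.0353 in the 876 inner spots (0.0263 to 0.0462). It was the higher at the edge in 7 of 8 slices, by a median of 2.05 times over all 8, while Gpr17, Neu4, Olig1 and C1ql1 were the higher at the edge in 1 of 8 slices each. The 6 fibroblast markers together also read higher at the edge at rest, at 1.82 against 0.313 UMIs per 10000. Across the 6 later slices those markers read 52.2 to 143 in fibrotic spots, 7.25 to 10.2 in the ring and 1.09 to 1.89 far away. Col1a1, which sets the zones, is among them. A fall of their sum with distance was thus built into the zones and tells nothing about Bmp4. The part of fibroblasts in the Bmp4 values was not tested.

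**Figure D4:**
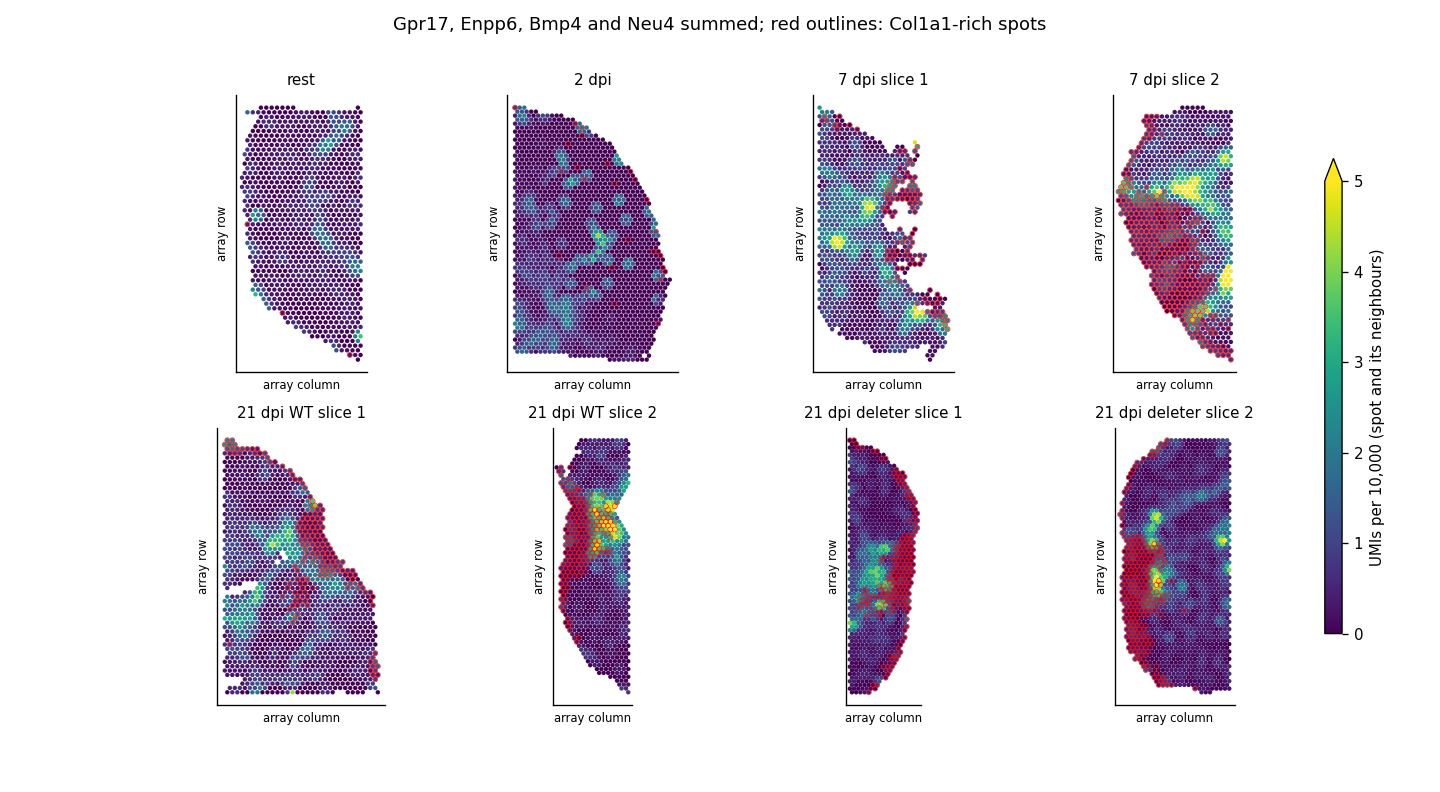
Maps of the 8 slices in array columns (horizontal) and rows (vertical), coloured by the UMIs of Gpr17, Enpp6, Bmp4 and Neu4 together per 10000, summed over each spot and its neighbours; red outlines mark fibrotic spots. The 4 genes together were the higher in the ring in all 6 later slices, by 1.19 times (7 dpi slice 2) to 4.47 times (21 dpi wild-type slice 2), and in myelin-poor spots by 1.09 times (the same wild-type slice) to 3.68 times (7 dpi slice 1).

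Levels were also taken relative to Olig1, with the lower slice of each pair given first. Per 100 Olig1 UMIs, Gpr17 read 26.7 and 36.9 in the ring and 13.4 and 19.8 far away at 7 dpi. At 21 dpi it read 19.1 and 21.4 against 11.5 and 12.5 in wild-type slices, and 19.3 and 31.4 against 10.2 and 10.6 in deleter slices. Ring and far ratios did not overlap in any group, and the same held for the ratios of Enpp6, Bmp4 and Neu4. C1ql1 gave 11.9 and 19.4 per 100 Olig1 UMIs in the ring against 5.38 and 6.29 far away at 7 dpi, 11.1 and 14.7 against 4.59 and 6.54 in wild-type slices at 21 dpi, and 8.41 and 8.97 against 4.99 and 5.12 in deleter slices, again without overlap. Sox10 gave 19.1 and 23.5 in the ring and 19.5 and 19.9 far away at 7 dpi, and 21.4 and 27.6 against 20.7 and 22.0 in wild-type slices at 21 dpi, with overlapping ranges in both, and 16.8 and 18.1 against 12.9 and 15.5 in deleter slices, without overlap. Olig2 gave 16.4 and 23.3 against 13.6 and 13.7 at 7 dpi, and 16.1 and 16.8 against 13.1 and 16.1 in wild-type slices at 21 dpi, with the closest values level to 3 digits, and overlapping ranges in deleter slices. Bcas1 gave 94.0 and 102 against 106 and 112 at 7 dpi and overlapping ranges at 21 dpi. These ratios are descriptions, and no test was made of them. Here and for levels, how often 2 values lie apart from 2 others over all genes was not counted. Olig1 itself was higher in myelin-rich spots in all 8 slices, by 2.41 to 4.94 times. Such spots made up 45.7% and 31.5% of far spots at 7 dpi against 1.67% and 13.1% of ring spots. The part of mature oligodendrocytes in the ratios was not tested.

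Myelin content differed between ring and far tissue and moved with these results. At 7 dpi 1.67% and 13.1% of ring spots were myelin-rich against 45.7% and 31.5% of far spots, and in wild-type slices at 21 dpi 13.4% and 41.7% against 33.8% and 17.3%. Of 20 mature oligodendrocyte and myelin genes, 10 were lower in the ring at 7 dpi and none higher, where 25.3% of all genes passed. The 20 had a median log2 difference of -1.41. Mal (log2 -2.19, adjusted p = 0.00874) and Fa2h (-1.73, adjusted p = 0.0146) led those that were lower. At 21 dpi 1 of the 20, Apod, was higher in either group and none was lower. Of all genes 13.7% passed there in wild-type slices and 15.9% in deleter slices.

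With myelin-rich spots left out of every zone, all 9 genes were higher in the ring at 7 dpi, against 34.2% of 14099 genes tested. Olig1 then read 2.09 and 1.58 in the ring against 1.22 and 1.36 far away (log2 0.52, adjusted p = 0.0334), and Sox10 read 0.412 and 0.355 against 0.183 and 0.212 (log2 0.98, adjusted p = 0.00610). Gpr17 read 0.544 and 0.620 against 0.157 and 0.324 (log2 1.36, adjusted p = 0.00495). Enpp6 read 0.847 and 0.336 against 0.164 and 0.160 (log2 1.84, adjusted p = 0.000331). Over all 8 slices, 8 of the 9 genes were the higher in myelin-rich spots in every slice and Bmp4 in 7 of 8. Leaving those spots out thus also left out part of what was measured. At 7 dpi that part came mainly from far tissue, where 45.7% and 31.5% of spots were left out, against 1.67% and 13.1% in the ring. Far levels of Olig1, Gpr17 and Enpp6 fell, while their ring levels moved less. How much of the count of 9 came from this uneven loss was not tested.

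At 21 dpi the same step acted the other way in wild-type slices. There 2 genes passed, Bmp4 (log2 1.64, adjusted p = 0.0180) and C1ql1 (1.53, adjusted p = 0.00852), against 6.57% of all genes. In deleter slices 4 passed, namely Enpp6, Bmp4, Gpr17 and C1ql1, against 16% of all genes. Gpr17 in wild-type slice 2 read 0.0823 in the ring, from 9 UMIs, and 0.139 far away once myelin-rich spots were out, against 0.590 and 0.176 with them in. The ring of Gpr17 in that slice therefore lay in myelin-rich spots, while in wild-type slice 1 it read 0.387 against 0.148 without them.

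**Figure D5:**
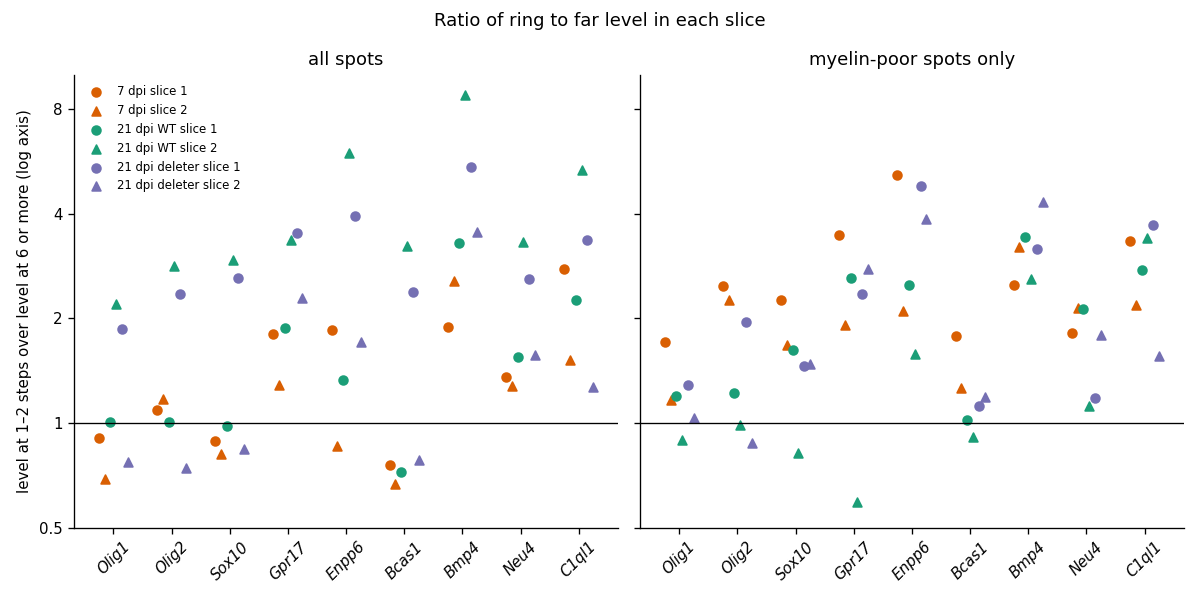
Ratio of the ring level to the far level on a log axis for each gene and each of the 6 later slices, over all spots (left) and over myelin-poor spots only (right). At 7 dpi the ratios of Olig1, Sox10 and Bcas1 pass from below 1 to above 1, while Bmp4 and C1ql1 stay above 1 in all 6 slices in both panels.

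Between times and genotypes no gene of the 9 passed. The test of whether the ring difference changed from 7 to 21 dpi in wild-type slices called 0% of all genes, and that of the fibrotic difference 0.0138% (2 of 14534 genes). The ring itself at 7 against 21 dpi called 0.432% of 13424 genes, far tissue 0% of 14142 and the ring of deleter against wild-type slices 0%. Those 3 comparisons with no calls held 1545, 785 and 279 genes at an unadjusted p below 0.05 in edgeR, and DESeq2 called 61, 18 and 7. The interval for Gpr17 in the ring ran from -0.51 to 0.46 on the log2 scale between deleter and wild-type slices, and from -0.16 to 0.82 between 7 and 21 dpi. In far tissue, Enpp6 read 0.471 and 0.462 at 7 dpi against 0.242 and 0.129 at 21 dpi (log2 1.29, SE 0.29, adjusted p = 0.857), without overlap but short of the threshold.

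Other genes of the lineage gave context for the ring. Of 18 precursor genes, 4 were higher in the ring at 7 dpi, 6 in wild-type slices at 21 dpi and 5 in deleter slices, and none was lower, with medians of 0.38, 0.42 and 0.44 on the log2 scale. All genes passed in 25.3%, 13.7% and 15.9% of cases in these comparisons, so the share at 7 dpi was near the background. At 7 dpi these were led by Cspg4, the NG2 proteoglycan of precursors and pericytes (log2 1.92, adjusted p = 0.000158), with Lhfpl3, Matn4 and Vcan. At 21 dpi Pdgfra, the PDGF receptor of precursors and fibroblasts, was higher in wild-type slices (0.73, adjusted p = 0.0262) and in deleter slices (0.75, adjusted p = 0.0196). Of 20 genes of committed and newly formed oligodendrocytes, 2 were higher and 2 lower at 7 dpi, 3 were higher in wild-type slices at 21 dpi, and 3 were higher and 1 lower in deleter slices. With 25.3%, 13.7% and 15.9% of all genes passing there, those counts were near the background in each group. Itpr2 was among those that were higher in each group (log2 1.15, 1.37 and 1.25, adjusted p = 0.0118, 0.0125 and 0.0143).

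Markers of other cells moved in the same zones. All 7 microglia and macrophage markers were higher in the ring at 7 dpi and in wild-type slices at 21 dpi, and 6 of 7 in deleter slices. Of 6 neuron markers, 5, 4 and 3 were lower in the same order. Of 6 endothelial and mural markers, 4, 1 and 3 were higher in the ring and 6, 5 and 6 in fibrotic spots, with none lower. Of 7 astrocyte markers 3 were lower at 7 dpi while 4 were higher in each 21 dpi group. Of all genes 25.3%, 13.7% and 15.9% passed in the ring in that order. Of 3 Schwann cell markers, peripheral glia that express Sox10 as well, 1 could be tested. It was higher in fibrotic spots in all 3 groups, where 48.9%, 54.7% and 54.6% of all genes passed. Together the 3 Schwann cell markers read at most 0.105 UMIs per 10000 in fibrotic spots and at most 0.0263 in the ring. The 4 choroid plexus and ependymal markers together differed between the 2 far zones of each group. Their lower and higher far values were 1.94 and 94.0 UMIs per 10000 at 7 dpi, 4.17 and 168 in wild-type slices at 21 dpi, and 1.27 and 79.0 in deleter slices. Far tissue was thus not of the same make-up within a pair. In the ring 1 of the 4 was higher in deleter slices and none passed in the other groups. The part of all these cells in the values of the 9 genes was not tested.

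The pathways of Bmp4 and C1ql1 were measured in the same zones. Of 25 BMP pathway genes tested other than Bmp4, 4 were higher in the ring in wild-type slices at 21 dpi and none was lower. With 13.7% of all genes passing there, that count was near the background. The 4 were Id1 and Id3, which are targets of BMP signalling, and Nbl1 and Chrdl1, which encode BMP antagonists. Id3 read a log2 difference of 1.54 (adjusted p = 0.00892) in those slices and 1.72 (adjusted p = 0.00384) in deleter slices. In deleter slices 7 of 25 were higher in the ring, against 15.9% of all genes passing. At 7 dpi 1 was higher, Chrdl1 (log2 1.60, adjusted p = 0.0102), and 1 was lower, Smad9, a signal transducer of the pathway (-1.62, adjusted p = 0.0159). There 25.3% of all genes passed. In fibrotic spots 9, 12 and 12 were higher and 3, 3 and 4 lower at 7 dpi, in wild-type and in deleter slices at 21 dpi, with Bmp5, Bmp7 and Nbl1 higher in each group. With 48.9%, 54.7% and 54.6% of all genes passing there, those counts were near the background.

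Of the 3 other tested genes of the C1q-like family and its receptor, none was higher in any of these 6 comparisons. In the ring 2 of the 3 were lower at 7 dpi, where 25.3% of all genes passed, and none was lower at 21 dpi. C1ql2 and the receptor gene Adgrb3 were lower in fibrotic spots in all 3 groups (C1ql2 log2 -3.99, -2.22 and -3.79, and Adgrb3 -1.15, -2.40 and -2.03, with adjusted p from 1.02e-05 to 0.0114). There 48.9%, 54.7% and 54.6% of all genes passed. All 6 neuron markers were also lower in fibrotic spots in each group, with median log2 differences of -1.84, -2.70 and -2.28. The part of neurons in the values of C1ql2 and Adgrb3 was not tested. Of 19 tested genes for mitogens and brakes of the lineage, 5, 5 and 7 were higher in the ring in the 3 groups and 1 was lower at 7 dpi, where 25.3%, 13.7% and 15.9% of all genes passed. Igf1, a growth factor of macrophages and other cells, was higher in each (log2 3.57, 2.80 and 2.97), as was Tgfb1 (2.78, 1.95 and 2.02), and Cntf was higher at 21 dpi (2.35 and 2.95).

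The genes whose levels followed the sum of Gpr17, Enpp6, Bmp4 and Neu4 most closely were sought over 53 sums by slice and distance, among 12539 genes. Apart from genes of the sum, the highest correlations of log2 counts were those of Sirt2 (r = 0.913), Mpzl1 (0.913), Lims2 (0.883), Cd81 (0.838), Scarb2 (0.836), Arsb (0.828), 9630013A20Rik (0.819), Ppfia4 (0.811), Atp6v0a2 (0.803) and Cd9 (0.799). Lims2 is the gene that overlaps Gpr17. Of the 9 genes, C1ql1 ranked 53 (0.756), Olig1 492 (0.632) and Bmp4, although part of the sum, 617 (0.611). The sums share slices and depth, so the correlations are given as a description only.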

How the data were processed

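The authors deposited UMI counts per gene and spot, made with Space Ranger 2.0.0 on build mm10 per the labels, with spot positions. Counting of UMIs collapses copies of one molecule. Of 9340 tissue spots, 4 without UMIs were left out. Samples were grouped by their labels, slices were split as connected pieces of tissue, and distance was counted on the hexagonal grid. UMIs were summed per slice and zone. The 18 sums of the 6 later slices were fitted in edgeR 4.0.16 (R 4.3.3; filterByExpr, TMM, quasi-likelihood F test, two-sided) with the slice as a block and a zone effect for each group. Rings and far zones were compared between groups in separate fits of 6 sums. DESeq2 1.42.0, other zone limits, filters, scalings and each slice left out were tried. On simulated data for this design with 200 of 14058 genes changed 2-fold, 78.5% were recovered. The simulation gave every gene the same spread, had no slice effects and changed only genes above a minimum count. That share therefore does not tell how often a change in a sparse gene such as Bmp4 would be found. All 9 genes were named in every slice, up to 4 genes of a list per comparison by smallest adjusted p, and 10 by likeness of pattern (sums of at least 100000 UMIs, genes of at least 500, prior count 0.5). The 9 genes and all lists were chosen with earlier results of these data known. Myelin-rich spots, those above the lower 75% by summed Mbp, Mobp and Mal, were set after the data had been seen, in place of a planned sum of 4 genes, 1 of which is not reported here and was also left out of the myelin list.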

Additional observations from a re-analysis of the deposited data

How the results depend on the processing

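Bmp4 in fibrotic spots at 21 dpi passed under all 18 alternatives in both genotypes (log2 2.65 to 3.94 and 2.55 to 3.61). Bmp4, C1ql1, Gpr17 and Neu4 had a positive ring difference in all 3 groups under each of the 18 alternatives, passed or not. Which genes passed was less stable, and the cause was not tested. In the ring comparisons the counts were 2 (7 dpi), 4 (21 dpi wild type) and 2 (deleter). A Col1a1 minimum of 3 gave 1, 1 and 0, and one of 10 gave 1 at 7 dpi and 4 in deleter slices. Far tissue taken from 4 steps gave 0 at 7 dpi, and a ring of 1 to 3 steps gave 2 in wild-type slices at 21 dpi. Fibrotic patches of at least 5 spots gave 5 in deleter slices, and fits of only the slices compared gave 4 at 7 dpi and 2 in wild-type slices. No filter on low counts gave 4 in deleter slices, and leaving out myelin-rich spots, in a form chosen after seeing the data, gave 9, 2 and 4. Leaving out 1 slice at a time gave 0 to 3, 1 to 7 and 0 to 4. Without either 7 dpi slice none passed at 7 dpi, without slice 1 or slice 2 of the 21 dpi wild-type pair 7 or 1 passed there, without deleter slice 1 none passed in deleter slices, and without either wild-type slice 4 did.

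In the fibrotic comparisons the counts were 3, 2 and 2. No filter gave 5 at 7 dpi and 4 in wild-type slices. At 21 dpi (wild type, deleter) a Col1a1 minimum of 3 gave 5 and 4, and one of 10 gave 4 and 5, C1ql1 not among them. Leaving out myelin-rich spots gave 5 and 6 at 21 dpi. Patches gave 1 in deleter slices and fits of only the slices compared 5 at 7 dpi. Leaving out 1 slice gave 0 to 4, 2 to 4 and 1 to 2: at 7 dpi 1 and 0 without its slice 1 or 2, in wild-type slices 4 without either of them, and in deleter slices 1 without either 7 dpi or either deleter slice. Without the replicate block 1 passed in the ring at 7 dpi and 1 in fibrotic spots of deleter slices, and other counts moved by less than 1.5 times. Far tissue at 7 against 21 dpi gave 2 calls with no filter. Without myelin-rich spots, 5 directions turned at 7 dpi with the new value passing: in the ring Olig1 (log2 0.52), Sox10 (0.98) and Bcas1 (0.61), and in fibrotic spots Olig2 (0.76, adjusted p = 0.0332) and Enpp6 (1.42, adjusted p = 0.00111). In those fibrotic spots Sox10 (-0.75 to 0.43), Gpr17 (-0.17 to 0.54), Neu4 (-0.36 to 0.18) and Bcas1 (-1.08 to 0.0035) also turned without passing, as did Bcas1 in the wild-type ring (0.45 to -0.07) and Sox10 in deleter fibrotic spots (-0.25 to 0.18).

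Over all genes, the ring counts of 3670, 1996 and 2312 ranged from 693 to 4823, 380 to 3462 and 356 to 3850, lowest without 7 dpi slice 1, wild-type slice 2 and deleter slice 1. The wild-type ring count was 1108 without the replicate block. The comparisons between groups moved most: the ring at 7 against 21 dpi gave 58 calls with edgeR, 455 with DESeq2, 1258 with no filter and 1 without wild-type slice 2, and 93 with library totals in place of TMM, a setting chosen after seeing the data. No filter gave 261 and 214 changed ring and fibrotic differences where the filtered fit gave 0 and 2, and DESeq2 gave 61 and 50. Bmp4 rests on 6 to 52 UMIs in a far zone, which limits the precision of its far levels.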
